A study of Mus musculus with 8 samples.

Results

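Imprinted genes of the embryonic growth network were followed in mouse embryonic fibroblasts (MEFs) with and without Cre deletion of H3f3b, a gene encoding the histone variant H3.3. The genes were 10 named by symbol, H19, Dlk1, Grb10, Cdkn1c, Peg3, Mest, Plagl1, Ndn, Phlda2 and Sgce, and every probe annotated to 1 of these symbols was taken. Of the 10 genes, 9 were annotated to a probe, with 13 probes of the 25697 on the array, and H19 was not analysed here.

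All cells were H3f3b Fl/Fl MEFs of strain C57BL6J from E12.5 embryos, cultured after removal of head and visceral organs. Cells in the Cre arm received a CRE-IRES-GFP retrovirus, and cells in the GFP arm received the IRES-GFP vector, so both arms were transduced and carried the floxed alleles. The 3 MEF lines were cKO1, cKO2 and pcKO1, each with 1 culture in each arm, and cKO2 was hybridised in duplicate, which gave 4 Cre and 4 GFP arrays. The labels do not say whether the lines came from separate embryos, and 1 cell name in the detection table is that of a pooled culture whose line is not given. P-values over the lines measure only the spread between these cultures. No line had a second culture in the same arm, so tests between lines took its Cre and GFP cultures as its only separate values. Their error is the spread of the line differences between the arms, not between replicate cultures of a line.

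Imprinted genes are expressed mainly from the allele inherited from one parent, a state set by DNA methylation at imprinting control regions in the germ line. Many of them act on fetal growth: several paternally expressed genes promote it and several maternally expressed genes restrain it. In mouse, the zinc finger factor Plagl1 was described as a regulator of a network of co-expressed imprinted genes, which are abundant in embryonic mesenchyme and decline after birth.

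Levels below are log2 of the background corrected and quantile normalised intensity. The lowest level of any probe detected on all 8 arrays lay between 6.65 and 6.78 on the individual arrays and is called the floor here. Levels were not set against each other between genes, because probes differ in brightness. In a bulk culture, fewer cells of a type and less RNA per cell cannot be told apart.

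Of the 6 genes that could be tested, Ndn, Dlk1 and Mest passed the moderated F test between the MEF lines, as did 44.7% of all genes tested, Grb10 was below the floor in cKO1 and far above it in the other lines, and none passed the threshold between Cre and GFP cells. Grb10, Ndn, Dlk1 and Mest had the widest ranges between lines, and their promoter sequences are shown to identify the regions at which these genes start. Each window holds 300 bases around a RefSeq transcription start on build GRCm38.p6, written 5′ to 3′ on the gene's strand. RefSeq windows were matched for 7 of the 10 genes, and for Grb10 and Mest the window with the most CG dinucleotides is given. Capitals mark TGCCGC on either strand, the core letters of the sequence bound by the imprint-maintaining factor ZFP57 when methylated.
Grb10 (chr11:12037371-12037670, minus strand): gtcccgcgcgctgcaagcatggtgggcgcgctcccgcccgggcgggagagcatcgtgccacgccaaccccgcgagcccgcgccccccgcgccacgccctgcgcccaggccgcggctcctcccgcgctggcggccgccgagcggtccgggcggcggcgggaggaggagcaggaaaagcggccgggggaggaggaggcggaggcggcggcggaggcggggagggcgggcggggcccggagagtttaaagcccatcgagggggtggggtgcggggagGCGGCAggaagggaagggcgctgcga
Ndn (chr7:62348027-62348326, plus strand): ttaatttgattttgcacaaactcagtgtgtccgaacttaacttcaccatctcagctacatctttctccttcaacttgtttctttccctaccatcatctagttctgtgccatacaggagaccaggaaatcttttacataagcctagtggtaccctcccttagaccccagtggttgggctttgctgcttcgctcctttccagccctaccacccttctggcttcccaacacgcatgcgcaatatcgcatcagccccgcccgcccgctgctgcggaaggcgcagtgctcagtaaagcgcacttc
Dlk1 (chr12:109452573-109452872, plus strand): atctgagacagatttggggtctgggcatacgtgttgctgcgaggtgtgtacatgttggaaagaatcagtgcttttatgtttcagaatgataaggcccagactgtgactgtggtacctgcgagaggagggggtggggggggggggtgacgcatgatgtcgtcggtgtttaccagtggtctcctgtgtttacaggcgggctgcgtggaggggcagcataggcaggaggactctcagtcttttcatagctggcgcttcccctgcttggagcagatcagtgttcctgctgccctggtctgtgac
Mest (chr6:30737800-30738099, plus strand): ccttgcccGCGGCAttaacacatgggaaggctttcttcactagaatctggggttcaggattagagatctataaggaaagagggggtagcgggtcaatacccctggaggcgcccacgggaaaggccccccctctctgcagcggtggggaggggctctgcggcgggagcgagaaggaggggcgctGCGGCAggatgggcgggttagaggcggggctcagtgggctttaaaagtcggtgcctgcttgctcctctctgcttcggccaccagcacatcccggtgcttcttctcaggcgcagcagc
The Grb10 window held 45 CG dinucleotides, a number reached by 1.93% of all 32841 promoter windows, whereas the Ndn window held 11, the Dlk1 window 9 and the Mest window 17, against a median of 7 over all windows. TGCCGC occurred 1 time in the Grb10 window, 2 times in the Mest window and 1 time in the Plagl1 window, which is not shown, and 11.6% of all windows held it. Of the other motifs searched on both strands, GCCATNTT, which YY1 binds, occurred in none of the members' windows and in 6.05% of all windows. The palindrome GGGGCCCC, part of a G/C-rich sequence described for Plagl1, occurred 1 time in the Peg3 window and in 1.08% of all windows. These matches describe letters in the windows and were not tied to the levels below. The Grb10 and Mest windows were chosen for the most CG dinucleotides, so the 1.93% and the contrast with Ndn and Dlk1 depend on that choice. The other Grb10 window held 9, a number reached by 45.8% of all windows, and the other Mest windows held 8 and 17. That Grb10 window and the Mest window with 8 did not hold the ZFP57 core letters.

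Deletion was read first from the targeted gene. H3f3b had levels of 6.73 for cKO1, 7.39 and 7.42 for cKO2 and 9.77 for pcKO1 with Cre, against 12.05 for cKO1, 12.42 and 12.62 for cKO2 and 11.94 for pcKO1 with GFP. Every Cre array was below every GFP array, and the pcKO1 culture with Cre kept more H3f3b signal than the other Cre cultures. The limma estimate was -4.20 ± 0.51 (SE, n = 3 lines; adjusted p = 0.188), and the position of the probe relative to the floxed exons was not given in the sources used here.

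Facts of the whole array set that touch these genes were as follows. Of 11 fibroblast markers with a probe, 9 passed the detection filter, and no endothelial or erythroid marker did. Of 13 skeletal muscle markers with a probe, 4 passed (Des, Acta1, Tnnt1 and Tnnc1), and Myod1, Myog, Myf5 and Pax7 did not. The summed deposited signal of those 4 was 2241.5 with Cre and 2877.7 with GFP in pcKO1, and lay between 617.1 and 682.4 on the arrays of cKO1 and cKO2. Acta1 by itself had levels of 10.69 with Cre and 11.07 with GFP in pcKO1, and of 6.81 or below in both arms of cKO1 and cKO2. The sum is therefore not read as a share of skeletal muscle cells. The summed signal of the 9 fibroblast markers was 25476.1 with Cre and 31107.7 with GFP in cKO1, between 30194 and 30677.2 with Cre and between 32511.4 and 32753.1 with GFP in cKO2, and 41496.8 with Cre and 39038.1 with GFP in pcKO1. Of the other marker sums, that of 2 macrophage markers (Adgre1 and Cd14) was 747.8 with Cre and 824.3 with GFP in pcKO1 and between 308.2 and 457.5 on the other arrays. That of 5 cartilage markers was 1153.7 with Cre and 1252.3 with GFP in pcKO1 and between 670 and 1151.2 on the other arrays. Lyz2 and Ptprc of the macrophage markers and Col9a1, Matn1 and Hapln1 of the cartilage markers had a probe but did not pass. The sum of 2 epithelial markers was 608.2 with Cre and 385.4 with GFP in cKO1 and between 275.1 and 398.9 on the other arrays. That of 4 neural markers was between 804 and 874.3 in cKO2 and between 1255.9 and 1387.9 in the other lines. Krt18 and Cdh1 of the epithelial markers and Tubb3, Nefl, Nefm and Sox2 of the neural markers had a probe but did not pass. None of these sums is read as a share of a cell type. All these marker sums include background. On the same deposited scale the Plagl1 and Sgce probes, detected on no array, read between 101.4 and 143.8. Correlation across genes was 0.994 between the cKO2 duplicates in each arm and between 0.877 and 0.944 for arrays of different lines.

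Of the 9 genes with a probe, 6 passed the detection filter (at least 3 of 8 arrays with a detection p below 0.05) and were tested: Dlk1, Grb10, Cdkn1c, Peg3, Mest and Ndn. Plagl1 was detected on 0 of 8 arrays by any of its 3 probes, whose levels ran between 5.77 and 6.33. Sgce, which encodes epsilon-sarcoglycan, was also detected on 0 of 8 arrays, with levels between 5.87 and 6.30. Phlda2, a PH-domain gene that limits placental growth, was detected on 1 of 8 arrays, in the GFP arm, with levels between 6.13 and 6.75. All 5 probes of these 3 genes lay at or near the floor in every line and arm, so a difference could not have been measured there.

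Grb10 encodes an adaptor that binds the insulin and IGF1 receptors and restrains growth, and is maternally expressed in most mouse tissues. Grb10 had levels of 6.21 for cKO1, 12.90 and 12.94 for cKO2 and 12.70 for pcKO1 with Cre, against 6.52 for cKO1, 12.95 and 12.91 for cKO2 and 12.78 for pcKO1 with GFP. On the deposited scale these were 138.7, 7654.2, 8060.8 and 6498.7 with Cre and 136.5, 8040.0, 7483.8 and 7072.3 with GFP. Grb10 was thus below the floor in both arms of cKO1 and far above the floor in both arms of cKO2 and pcKO1.

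The line difference of Grb10 was -6.56 ± 0.16 for cKO1 minus cKO2 (SE; limma adjusted p = 3.91e-07) and -6.37 ± 0.16 for cKO1 minus pcKO1 (adjusted p = 3.13e-07). Both cKO1 arrays were below the floor, so these differences and their p-values rest on values not above background on 1 side, and Grb10 entered the test through the lines in which it is high. As a bound, Grb10 was at least 71.8-fold lower in cKO1 than in cKO2 and at least 63.1-fold lower in cKO1 than in pcKO1, with the floor of the cKO1 arrays as the lower value. Between the bright lines, pcKO1 minus cKO2 was -0.19 ± 0.16 (adjusted p = 0.446). Only 1 probe was annotated to Grb10, so no second probe could be compared.

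**Figure D1:**
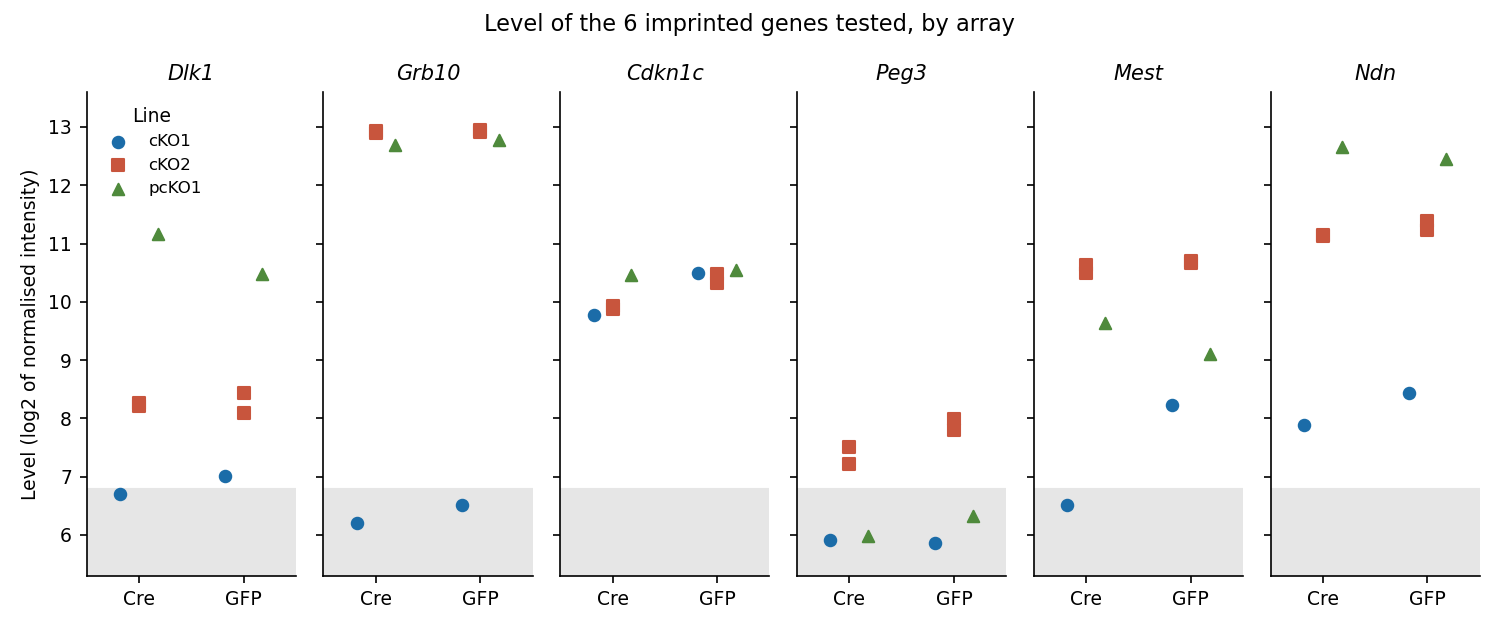
Level of the 6 tested imprinted genes on each array, as log2 of normalised intensity on the y axis, with the Cre arm left of the GFP arm and lines given by colour and shape; the grey band ends at 6.78, the highest floor of any array. Grb10 lies in the band in both arms of cKO1, and Cdkn1c is at 10.33 or above on all 4 GFP arrays.

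Cdkn1c, the other tested gene of the maternally expressed, growth-restraining kind, encodes the cyclin-dependent kinase inhibitor p57Kip2 and had the narrowest range between lines of the 6. Cdkn1c had levels of 9.76 for cKO1, 9.93 and 9.87 for cKO2 and 10.45 for pcKO1 with Cre, against 10.49 for cKO1, 10.47 and 10.33 for cKO2 and 10.54 for pcKO1 with GFP. The GFP cultures spanned a range of 0.14 between lines, and 89.1% of genes tested had a range at least this wide, with levels below the floor set to it. No line pair passed the threshold for Cdkn1c (adjusted p from 0.179 to 0.937), which does not show equal levels. Without cKO1, Cdkn1c for pcKO1 minus cKO2 was 0.35 and passed in limma (adjusted p = 0.0254), from pcKO1 and cKO2 alone. Its SE of 0.13 was near those of the other tested imprinted genes in that fit (0.11 to 0.15), so it does not measure the spread of Cdkn1c itself.

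Among the paternally expressed genes, Ndn encodes necdin, a MAGE family protein linked to growth arrest and survival of neurons. Ndn had levels of 7.89 for cKO1, 11.13 and 11.14 for cKO2 and 12.66 for pcKO1 with Cre, against 8.44 for cKO1, 11.38 and 11.23 for cKO2 and 12.45 for pcKO1 with GFP. The order cKO1, cKO2, pcKO1 held in both arms without overlap. Ndn differed by -3.06 ± 0.20 for cKO1 minus cKO2 (adjusted p = 2.83e-05), by 1.33 ± 0.20 for pcKO1 minus cKO2 (adjusted p = 0.00335) and by -4.39 ± 0.20 for cKO1 minus pcKO1 (adjusted p = 8.73e-06).

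Dlk1, a transmembrane protein with EGF repeats that inhibits adipocyte differentiation, followed the same order of lines. Dlk1 had levels of 6.71 for cKO1, 8.27 and 8.21 for cKO2 and 11.17 for pcKO1 with Cre, against 7.01 for cKO1, 8.44 and 8.09 for cKO2 and 10.48 for pcKO1 with GFP. The cKO1 culture was below the floor with Cre and just above it with GFP. Dlk1 differed by -1.39 ± 0.24 for cKO1 minus cKO2 (adjusted p = 0.0028), by 2.57 ± 0.24 for pcKO1 minus cKO2 (adjusted p = 0.000362) and by -3.97 ± 0.24 for cKO1 minus pcKO1 (adjusted p = 3.06e-05). Skeletal muscle, fibroblast, macrophage and cartilage marker sums, which include background, were also highest in pcKO1, as given above with the level of Acta1 for the muscle sum. Their part in the Dlk1 and Ndn levels was not tested.

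Mest, which encodes an alpha/beta hydrolase fold protein and is widely expressed in embryonic mesoderm, was highest in cKO2. The brightest of its 3 probes had levels of 6.51 for cKO1, 10.63 and 10.50 for cKO2 and 9.63 for pcKO1 with Cre, against 8.23 for cKO1, 10.71 and 10.67 for cKO2 and 9.10 for pcKO1 with GFP. The second probe read 6.60 for cKO1, 9.14 and 9.47 for cKO2 and 8.34 for pcKO1 with Cre, against 7.15 for cKO1, 9.65 and 9.61 for cKO2 and 8.0 for pcKO1 with GFP. The third read 6.61 for cKO1, 10.60 and 10.25 for cKO2 and 9.75 for pcKO1 with Cre, against 8.29 for cKO1, 10.32 and 10.56 for cKO2 and 9.32 for pcKO1 with GFP. All 3 Mest probes gave the order cKO1, pcKO1, cKO2 in both arms.

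For the brightest Mest probe, cKO1 minus cKO2 was -3.25 ± 0.43 (adjusted p = 0.000888) and cKO1 minus pcKO1 was -1.99 ± 0.43 (adjusted p = 0.0116). Every Mest probe was below the floor in cKO1 with Cre, so both differences rest in part on a value not above background. In the GFP arm alone, where cKO1 was above the floor, they were -2.46 and -0.86. Over both arms, pcKO1 minus cKO2 was -1.26 ± 0.43 and missed the threshold (adjusted p = 0.0745), and it passed in 7 of 8 alternative settings. Those include duplicates as separate pairs, the GFP arm alone and the fit without cKO1, whose errors are smaller by design. The settings without background correction, with median scaling and with cyclic loess passed narrowly in limma (adjusted p from 0.0464 to 0.0498).

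Peg3 encodes a large zinc finger protein and was above the floor in cKO2 alone. Peg3 had levels of 5.91 for cKO1, 7.22 and 7.52 for cKO2 and 5.98 for pcKO1 with Cre, against 5.85 for cKO1, 7.99 and 7.80 for cKO2 and 6.32 for pcKO1 with GFP. Peg3 entered the test through the line in which it is high, so its line differences are given as a description with no test. With the floor as the lower value, Peg3 was at least 1.83-fold lower in cKO1 than in cKO2 and at least 1.96-fold lower in pcKO1 than in cKO2. Neither cKO1 nor pcKO1 had a measured Peg3 level, and no order was read between them.

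In the moderated F test between lines, Ndn, the gene among those called that was detected on all 8 arrays, passed, and so did Dlk1 and Mest, each detected on 7 of 8. Grb10, detected on 6 of 8 arrays, and Peg3, detected on 4 of 8, also fell past the threshold but are not counted here, since they reached the test through the lines in which they are high. Ndn, Dlk1 and Mest were lower in cKO1 than in cKO2 and than in pcKO1 at the threshold. Among all genes tested, 19.3% were lower in cKO1 than in cKO2 and 15.3% were lower in cKO1 than in pcKO1. Between pcKO1 and cKO2, Dlk1 and Ndn were higher in pcKO1, and 19.8% of all genes differed in either direction.

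The size of these differences was set against all genes by the range between lines in the GFP arm, the highest line minus the lowest, with every level below its array's floor set to the floor. The range was 4.01 for Ndn, and 0.306% of the 8488 genes had a range at least that wide. It was 3.48 for Dlk1 (0.542% of genes) and 2.46 for Mest (1.72%). For Grb10 and Peg3 the low end is the floor, so their ranges are bounds, at least 6.20 for Grb10 (0.0589%, or 5 genes) and at least 1.21 for Peg3 (11.2%). The median range over all genes was 0.49, and 17.1% of genes had a range of at least 1. Of the 6 genes, Cdkn1c alone lay below that median.

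**Figure D2:**
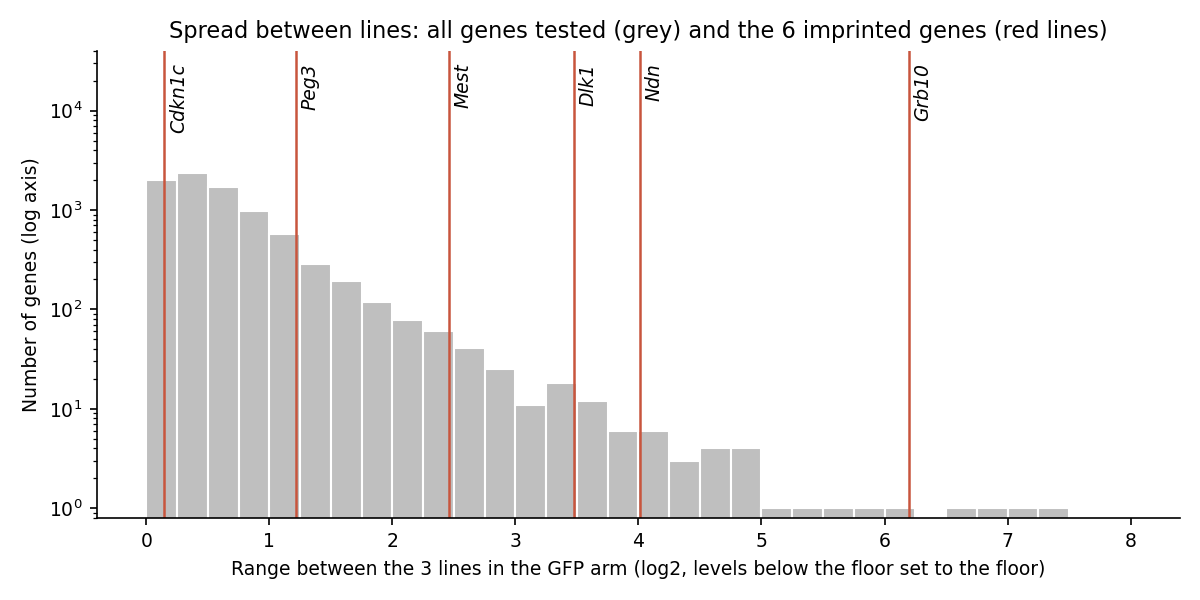
Number of genes, on a log axis, by the range of their level between the 3 lines in the GFP arm (log2, levels below the floor set to the floor), for all 8488 genes tested in grey, with red lines at the 6 imprinted genes. Grb10, whose range is a bound of at least 6.20, lies in the far tail, and Cdkn1c at 0.14 lies below the median of 0.49.

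With Cre, none of the 6 genes passed the threshold in limma with line as a block (adjusted p from 0.967 to 0.974). No gene of the 8488 passed either, 0% lower and 0% higher. H3f3b, which was lower on every Cre array than on every GFP array, also missed it (limma adjusted p = 0.188). The lack of calls therefore does not show that levels were unchanged. At an unadjusted p under 0.05, Cdkn1c was the 1 of the 6, against 2.05% of all genes lower and 1.63% higher. The median change of the 6 was -0.22, against -0.01 over all genes. The changes of Peg3, Grb10, Mest and Dlk1 include levels below the floor, so this median was not read as a shift of the set.

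Cdkn1c averaged 10.04 ± 0.36 in Cre cells and 10.48 ± 0.07 in GFP cells (SD, n = 3 lines). The Cdkn1c change was -0.44 ± 0.15 (SE; unadjusted p = 0.0211, adjusted p = 0.967) and was negative in 3 of 3 lines, with -0.73 for cKO1, -0.50 for cKO2 (-0.54 and -0.46 in its pairs) and -0.09 for pcKO1. The Cre level of Cdkn1c in pcKO1 lay within the range of the GFP arrays. Of all genes tested, 13.2% were lower with Cre in all 3 lines.

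Grb10 was the other gene with a negative sign in all 3 lines, with -0.31 for cKO1, where both arms were below the floor, -0.01 for cKO2 and -0.08 for pcKO1. The Grb10 estimate was -0.13 ± 0.13 (SE; adjusted p = 0.967). The cKO2 pairs gave -0.05 and 0.03, so this line had no common sign.

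The other 4 genes had mixed signs. Mest was -1.72 for cKO1, -0.13 for cKO2 and 0.53 for pcKO1, for an estimate of -0.44 ± 0.35 (adjusted p = 0.967). Without pcKO1 the Mest estimate was -0.93, and without cKO1 it was 0.20. The fit without pcKO1 passed in limma (adjusted p = 0.00421) but rests on cKO1 and cKO2 alone. The SEs of all tested imprinted genes lay between 0.206 and 0.213 in that fit, so the SE does not measure the spread of Mest itself. In cKO1 the Cre array was below the floor, so Mest was at least 2.73-fold lower with Cre than with GFP there by the brightest probe, at least 1.29-fold by the second and at least 2.83-fold by the third, from 1 array in each arm with no replicate check.

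Ndn was -0.55 for cKO1, -0.17 for cKO2 and 0.22 for pcKO1, for an estimate of -0.17 ± 0.16 (adjusted p = 0.967). Dlk1 was -0.30 for cKO1, -0.03 for cKO2 and 0.68 for pcKO1, for an estimate of 0.12 ± 0.20 (adjusted p = 0.974). These 2 genes, Mest and Cdkn1c all had their lowest value in cKO1 and their highest in pcKO1. Peg3 was 0.06 for cKO1, -0.53 for cKO2 and -0.34 for pcKO1, for an estimate of -0.27 ± 0.15 (adjusted p = 0.967), and only the cKO2 value had measured levels on both sides, with -0.77 and -0.29 in its pairs.

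**Figure D3:**
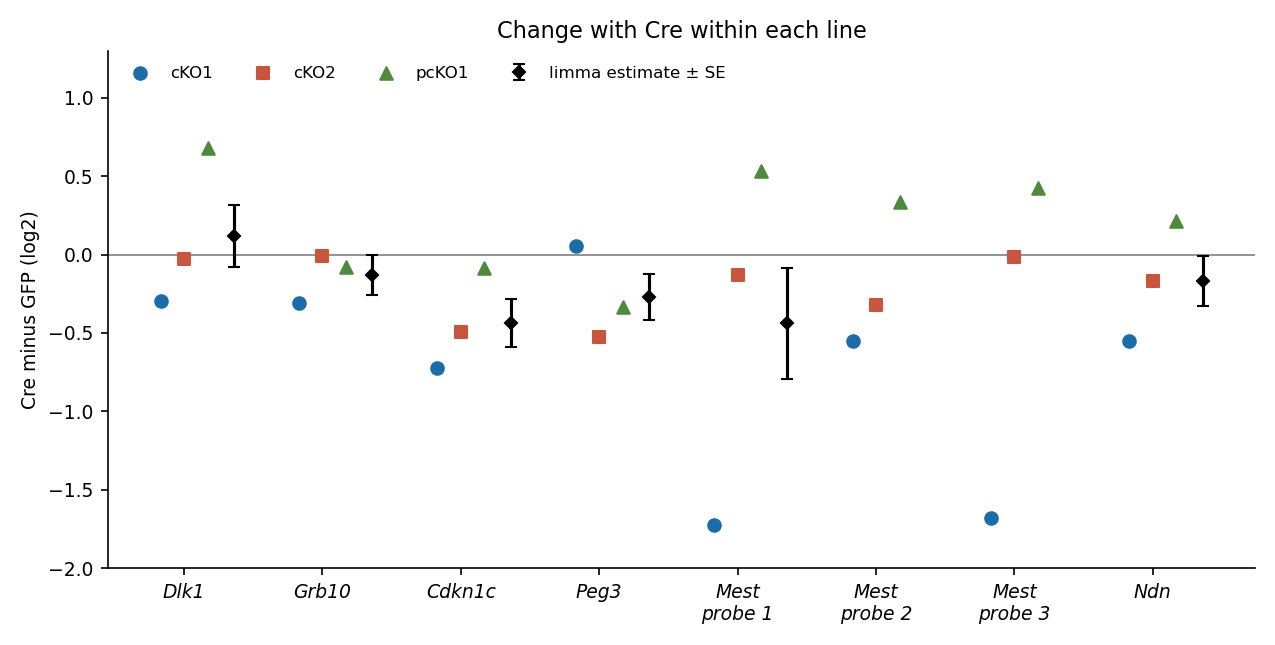
Cre minus GFP difference (log2) within each line for the 6 tested genes and the 3 Mest probes, with the limma estimate and its standard error as black diamonds for the probe that stands for each gene. Cdkn1c is below 0 in all 3 lines, and Mest runs between -1.72 for cKO1 and 0.53 for pcKO1 for its brightest probe.

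Whether the Cre difference itself differed between lines was tested with a moderated F test on all 8 arrays, in which only the cKO2 duplicates gave a spread, so the error was that of duplicate arrays and the test does not show a difference beyond the spread between cultures. Mest (adjusted p = 1.34e-05), Dlk1 (adjusted p = 0.0388) and Ndn (adjusted p = 0.0393) passed, and 11.3% of all genes did. Cdkn1c (adjusted p = 0.103), Peg3 (adjusted p = 0.321) and Grb10 (adjusted p = 0.388) did not. By pairs of lines, cKO1 minus pcKO1 passed for Dlk1 (-0.98 ± 0.26, adjusted p = 0.0185), for Ndn (-0.77 ± 0.19, adjusted p = 0.0143) and for Cdkn1c (-0.64 ± 0.20, adjusted p = 0.0471), and none of these 3 passed for another pair. The Mest difference was -1.60 ± 0.19 for cKO1 minus cKO2 (limma adjusted p = 0.000111) and -2.26 ± 0.21 for cKO1 minus pcKO1 (adjusted p = 4.93e-06), and pcKO1 minus cKO2 was 0.66 ± 0.19 (adjusted p = 0.145). Mest and Dlk1 were below the floor in cKO1 with Cre, so their values with cKO1 in this test rest in part on levels not above background. Without cKO1 none of the 6 genes passed this test, and without pcKO1 only Mest did (adjusted p = 0.000119).

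A wider list of imprinted genes gave the surroundings of this set. Of 60 other genes listed as imprinted, 47 had a probe and 23 passed the detection filter. The arrays give total levels and do not separate the alleles, so imprinting of the listed genes in MEFs was not tested. None of the 23 passed the threshold for Cre against GFP in limma, and at an unadjusted p under 0.05 the count was 0 lower and 1 higher, against 2.05% of all genes lower and 1.63% higher, so the count is near the background. The 1 gene was Impact, an inhibitor of the amino acid sensing kinase Gcn2, with levels of 10.70 for cKO1, 11.56 for cKO2 and 11.06 for pcKO1 with Cre and 10.24 for cKO1, 11.28 for cKO2 and 10.79 for pcKO1 with GFP. Impact had a change of 0.33 ± 0.12 (SE; unadjusted p = 0.0243, adjusted p = 0.967) and was higher with Cre in 3 of 3 lines. Signs were negative in all 3 lines for 5 of the 23 genes and positive in all 3 for 2, against 13.2% and 12.6% of all genes tested.

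Between lines, 14 of the 23 passed the F test, against 44.7% of all genes. With levels below the floor set to it, 8 of the 23 had a GFP range of at least 1, against 17.1% of all genes, and their median range was 0.66, against 0.49 over all genes. These counts include genes that reached the test through the lines in which they are high. The widest was Igf2, the insulin-like growth factor that is the chief growth-promoting imprinted gene, with levels of 8.47 for cKO1, 12.03 for cKO2 and 13.49 for pcKO1 with Cre and 7.70 for cKO1, 12.38 for cKO2 and 14.62 for pcKO1 with GFP. Igf2 thus had the same order of lines as Ndn and Dlk1. Dcn, which encodes the matrix proteoglycan decorin, had levels of 5.95 for cKO1, 10.85 for cKO2 and 10.41 for pcKO1 with Cre and 6.16 for cKO1, 11.16 for cKO2 and 9.67 for pcKO1 with GFP. Dcn was highest in cKO2 and below the floor in cKO1, its lowest line, and all 3 Mest probes had the same order.

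The next widest GFP ranges were smaller. Jade1, a chromatin scaffold protein, ranged over 1.65 and was lowest in cKO1, and Gab1, a docking protein of growth factor receptors, ranged over 1.65 and was highest in cKO2. Igf2r, the receptor that clears IGF2, ranged over 1.51, with 8.88 for cKO1, 9.67 for cKO2 and 10.40 for pcKO1. Dio3, the thyroid hormone deiodinase that shares an imprinted domain with Dlk1, had 6.26 for cKO1, which is below the floor, 7.32 for cKO2 and 7.70 for pcKO1. It was named by its range without the floor (1.44). With the floor as the low end its range was at least 0.97, a bound below the ranges of Blcap (1.10), Snrpn (1.05) and Impact (1.04).

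**Figure D4:**
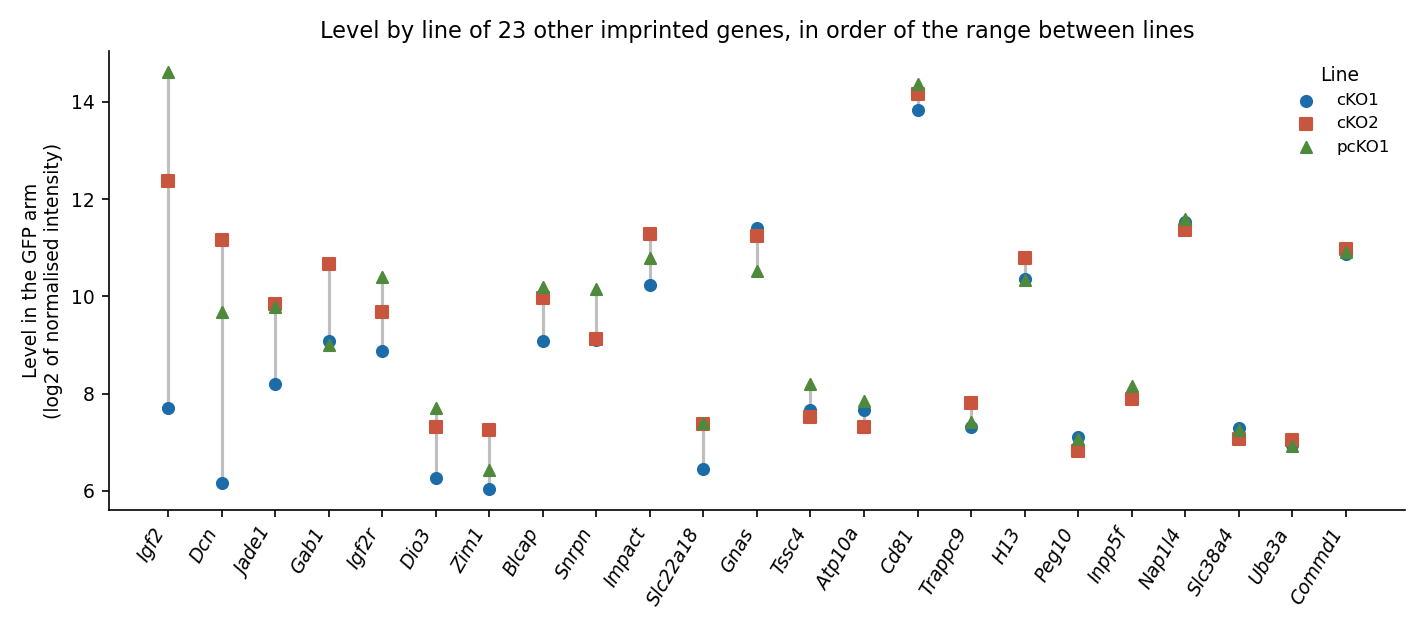
GFP arm level (log2 of normalised intensity) by line for the 23 other imprinted genes that passed the detection filter, in order of the measured range between lines, with a grey bar from the lowest to the highest line. Igf2 runs between 7.70 for cKO1 and 14.62 for pcKO1, and most genes on the right differ by less than 1.

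For each of the 5 genes with a GFP range of at least 1, the genes most alike in pattern were named by Pearson's r over the 8 arrays, among 3050 genes that ranged over at least 1. These r values describe 8 arrays of only 3 lines, with shared duplicates, and carry no test. Levels below the floor entered r unchanged. Nearest to Grb10 were Gpx7, an endoplasmic reticulum peroxidase, Cdkn1a, the kinase inhibitor p21, and Hsd3b7, a steroid dehydrogenase of bile acid synthesis, each with r = 0.997. Cdkn1a had GFP levels of 8.23 for cKO1, 12.83 for cKO2 and 12.86 for pcKO1. Nearest to Mest were Copz2, a coatomer subunit, and Ypel3 (each with r = 0.997), then Ilvbl (r = 0.995).

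Nearest to Ndn were Rtl6, a retrotransposon-derived gene (r = 0.996), Pcdh7, a protocadherin (r = 0.993), and Selenon, a selenoprotein (r = 0.992). Nearest to Dlk1 were C1qtnf3, a secreted C1q/TNF-related protein (r = 0.996), Gprasp1 (r = 0.987) and Gas6, a ligand of TAM receptors (r = 0.987). Gas6 had GFP levels of 8.67 for cKO1, 9.65 for cKO2 and 11.06 for pcKO1. Nearest to Peg3 were Inmt, a methyltransferase (r = 0.988), Npy1r, a neuropeptide Y receptor (r = 0.987), and the probe ILMN_1221102 (r = 0.986), which has no symbol. Peg3, Inmt and Npy1r were all below the floor in the GFP arm of cKO1 and pcKO1, so the r values of Inmt and Npy1r rest in part on levels not above background. C1qtnf3 (6.51) and Pcdh7 (5.99) were also below the floor in the GFP arm of cKO1. Grb10 was below it in both arms of cKO1, and Mest and Dlk1 were below it in cKO1 with Cre. The r values with these genes share this limit. No imprinted gene of the wider list was among these 15 genes.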

How the data were processed

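RNA from 8 MEF cultures or duplicates was amplified and hybridised to Illumina MouseRef-8 BeadChips, a 1-colour array. The authors deposited average bead intensity per probe on a linear scale, made in GenomeStudio and scaled so that each sample-named array had a mean of 508.3. The authors also deposited a detection p-value per probe, in a table whose column names show the arm but not the line, and a column was therefore tied to its arm alone. That table has 8 further signal columns, which were not used. The members and gene lists were chosen with earlier results of these data known.

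Background was corrected with normexp (offset 50) on the sample-named intensities, followed by quantile normalisation and log2. The filter asked for a detection p below 0.05 in at least 3 of the 8 columns, which left 11152 probes, and the brightest probe stood for each gene (8488 genes, 639 of them probes without a symbol). The cKO2 duplicates were averaged, and limma (version 3.58.1 in R 4.3.3) was fitted to the 6 line means with line and arm, with an intensity trend, Benjamini-Hochberg adjustment over all genes and a threshold of 0.05. The same fit gave the moderated F test between lines, and the fit of the Cre difference between lines used all 8 arrays. Deviations from the arm means correlated between the arms of a line at 0.818, 0.919 and 0.749, and the pairing comes from the line in the labels. The number of arrays limits the precision. Named genes were all members, H3f3b, the wider imprinted genes with an unadjusted p under 0.05 or among the widest line ranges without the floor, and the 3 nearest genes by r. The fits were tested on simulated data. Setting levels below the floor to the floor for the range between lines was chosen after seeing the data. No build is given in the sources used here for the array, so coordinates are those of the RefSeq windows on GRCm38.p6. Alternatives covered background correction, normalisation, filters, the line block, duplicates, probes and each line left out.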

Additional observations from a re-analysis of the deposited data

Results flagged for a closer look

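Of 18 sets of 4 arrays (9 genes in each arm), 3 held a sample far from the others, measured as its gap to the nearest array over the whole range. For Grb10 the cKO1 array was far below the others in the Cre arm (0.964 of the range, level 6.21) and in the GFP arm (0.973 of the range, level 6.52). For Sgce a cKO2 array was lowest in the GFP arm (0.832 of the range), at a level of 5.87 where the gene was detected on no array. Chance gives about 1 such sample in 20 sets, and each set holds the cKO2 duplicates, which are not independent.

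The test of whether the Cre difference differed between lines was passed by 3 of the 6 tested genes, against 11.3% of all genes, in limma: Mest (adjusted p = 1.34e-05), Dlk1 (adjusted p = 0.0388) and Ndn (adjusted p = 0.0393). Its only error was between the duplicate arrays of cKO2, so it does not show a difference beyond the spread between cultures. Mest and Dlk1 were also below the floor in cKO1 with Cre. In each of the 3, the Cre minus GFP value was lowest in cKO1 and highest in pcKO1.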

How the results depend on the processing

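For Cre against GFP the count of the 6 genes called was 0 in every setting except without pcKO1, which called Mest (0 to 1 over the lines left out). That fit rests on cKO1 and cKO2 alone, with the limit of its SE given above. The count over all genes was 1 with median scaling, 3 with the values as deposited, 1 with no detection filter, 5 with the duplicates as separate pairs and 3 to 100 with a line left out, and was 0 without the replicate block. With a line left out the estimate ran between -0.16 (without pcKO1) and 0.33 for Dlk1, between -0.93 and 0.20 (without cKO1) for Mest and between -0.36 and 0.023 (without cKO1) for Ndn, so each of the 3 turned its sign. Between lines, the count past the threshold, 5 with Grb10 and Peg3 included, became 1 with probes detected on all 8 arrays, which tests only Cdkn1c and Ndn, and was 4 to 5 with a line left out, and the count over all genes was 1838 to 3739. Cdkn1c for cKO1 minus cKO2 turned to 0.091 in the GFP arm alone, with no call in either. The count of 3 genes whose Cre difference differed between lines was 1 with probes detected on all 8 arrays and 0 to 1 without cKO1 or pcKO1; it could not be fitted without cKO2, and its alternatives were chosen after seeing the data. Without the line as a block the estimates were the same and no call changed. The cause of these changes was not tested beyond the smaller number of genes or lines. Signals near the floor limit Peg3 in cKO1 and pcKO1, Grb10 and Dlk1 in cKO1, Mest in cKO1 with Cre, and Plagl1, Sgce and Phlda2 in all lines.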
